A study of Mus musculus with 6 samples.

Results

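Adipocyte hormones and lipid storage genes were measured in the pancreas of mice with and without Cftr, the anion channel of epithelia whose loss causes cystic fibrosis. The set was a list of 10 genes by name, Adipoq, Retn, Cfd, Fabp4, Lpl, Aoc3, Agt, Car3, Cd36 and Pparg. All probe sets that the platform annotation gives to these genes were taken, which made 11 probe sets of 9 genes among the 12488 probe sets of the array. Cfd, which encodes the serine protease adipsin, had no probe set under that annotation and is not analysed here. Of the 11 probe sets, 8 of 7 genes were bright enough to test, meaning an intensity above 140.2 in at least 3 of 6 arrays. The 3 left out were both probe sets of Cd36 and the only one of Pparg.

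Each array held total RNA from the pancreas of 1 male mouse. The 3 control mice were CFTR+/+ and aged 57, 56 and 57 days, and the 3 CF mice were CFTR-/- and aged 57, 56 and 58 days. Every mouse, controls included, was gastrin+/-, so that only a single gastrin allele was intact, had a background of 95% black6 and 5% 129Sv, and ate the peptide diet Peptamen from the age of 10 days. The titles carry no suffix, the suffix B or the suffix P in each group, numbered here as replicates 1, 2 and 3. The label of control replicate 1 alone speaks of the entire pancreas. Array medians lay between 207.8 and 234.4 on the linear intensity scale, and the number of arrays limits the precision of every value. The digestive enzymes of acinar cells, which make up most of the gland, were bright on all arrays: Cela1, an elastase, measured from 71551 to 112064.

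Fat cells store triglyceride in a large droplet and release hormones into the blood. Pparg is the nuclear receptor that drives their differentiation, and many genes of lipid uptake and storage are its targets. Adipose tissue lies around and between the lobules of the pancreas, so a dissected gland can carry some of it. Several members are also made elsewhere: macrophages express Fabp4, Lpl and Cd36, capillary endothelium Fabp4 and Cd36, muscle Lpl and Car3, and liver Agt and Car3.

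Promoter windows from RefSeq, each running from 250 bases before to 50 bases after an annotated start on GRCm38.p6, were held for 6 of the 10 genes. Those of Adipoq and Retn, which followed a similar course over the arrays, and of Agt, which did not, are shown, in lower case with the single motif match in capitals. They lie at chr16:23146286-23146585 (plus strand), chr8:3655520-3655819 (plus strand) and chr8:124569657-124569956 (minus strand).

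Adipoq promoter: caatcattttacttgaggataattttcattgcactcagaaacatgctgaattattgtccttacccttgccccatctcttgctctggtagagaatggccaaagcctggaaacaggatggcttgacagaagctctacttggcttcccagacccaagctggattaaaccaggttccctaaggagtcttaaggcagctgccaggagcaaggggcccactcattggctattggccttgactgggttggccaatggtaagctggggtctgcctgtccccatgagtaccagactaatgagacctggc

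Retn promoter: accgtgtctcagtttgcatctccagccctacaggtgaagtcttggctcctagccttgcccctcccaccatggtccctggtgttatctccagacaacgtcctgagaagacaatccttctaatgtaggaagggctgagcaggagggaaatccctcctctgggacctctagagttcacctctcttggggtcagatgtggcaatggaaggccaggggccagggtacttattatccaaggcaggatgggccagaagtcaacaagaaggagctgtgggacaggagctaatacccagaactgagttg

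Agt promoter: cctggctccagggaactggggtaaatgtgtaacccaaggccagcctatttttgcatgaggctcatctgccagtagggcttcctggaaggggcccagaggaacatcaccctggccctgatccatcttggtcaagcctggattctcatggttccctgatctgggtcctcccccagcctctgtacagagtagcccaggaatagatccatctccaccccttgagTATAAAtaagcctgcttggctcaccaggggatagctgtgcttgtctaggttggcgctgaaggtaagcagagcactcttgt

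They were searched on both strands for AGGTCA, the core element of nuclear receptors such as Pparg, for TTGCNNAA, a form of the C/EBP site, and for TATAAA, the TATA box. The Adipoq and Retn windows held none of these letters, and the Agt window held TATAAA, starting at position -30 from the start site. Among all 32851 windows, 16.3% held AGGTCA, 10.8% TTGCNNAA and 13.6% TATAAA. Of the 8 windows held for the 6 genes, AGGTCA was in 3, those of Cd36 and 2 of the 3 of Pparg, TTGCNNAA in 1, the other one of Pparg, and TATAAA in 2, those of Agt and 1 of Pparg. A match is a description of the letters alone.

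The hormone genes Adipoq and Retn differed widely between mice of the same genotype. Adipoq encodes adiponectin, which raises insulin sensitivity in liver and muscle, and spans chr16:23146536-23157968. The control arrays, in the order of replicates 1 to 3, read 5591, 187 and 1899, and the CF arrays, in the same order, 721, 54.2 and 58.2. The groups overlapped, because CF replicate 1 lay above control replicate 2. Within each title suffix the CF array was the lower, by log2 differences of -2.96 without suffix, -1.78 for B and -5.03 for P. The means were 2559 ± 2762 and 278 ± 384 (SD, n = 3 per group), a log2 difference of -3.26 ± 1.30 SE, or 9.55-fold (limma adjusted p = 0.65). Leaving out 1 array moved the difference between -4.63, without control replicate 2, and -2.18, without control replicate 1. The 3 control mice themselves spanned 30.0-fold, more than the distance between the group means. Fewer fat cells and less RNA of these genes per cell cannot be told apart in RNA of a whole gland. This and the following fold changes are on the log2 scale after values under 47.6 were set to it, which understates changes of dim genes.

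Retn encodes resistin, a hormone that opposes insulin action in mice, and lies at chr8:3655770-3659818. It measured 955, 82.5 and 506 in controls and 90.7, 54.5 and 142 in CF. Control replicate 2 was again the low control, below 2 of the CF arrays, so the groups overlapped. The log2 difference was -1.94 ± 0.84 (3.84-fold, adjusted p = 0.67), with -3.40, -0.60 and -1.83 within the suffixes in the same order. Dropping control replicate 1 gave -1.20, and dropping control replicate 2 gave -2.97.

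Agt encodes angiotensinogen, the precursor of angiotensin, secreted by liver and by fat cells (chr8:124556587-124569706). Its intensities were 302, 536 and 164 in controls and 142, 160 and 120 in CF, so every CF array lay below every control array. The array highest for Agt was control replicate 2, the control in which the other 7 tested probe sets were lowest. The log2 difference was -1.09 ± 0.46 (2.13-fold, adjusted p = 0.67), and the suffix differences were -1.09, -1.74 and -0.45. Without control replicate 2 it was -0.67.

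Genes that move fatty acids had smaller fitted differences. Fabp4 encodes the fatty acid carrier of the adipocyte cytosol and lies at chr3:10204342-10208616. It gave 1357, 437 and 679 in controls and 647, 316 and 358 in CF, which ranks all 6 arrays in the same order as Adipoq, with CF replicate 1 above control replicate 2. The log2 difference was -0.82 ± 0.43 (1.76-fold, adjusted p = 0.73), and it was negative within every suffix, from -1.07 to -0.47. Without control replicate 1 it was -0.38.

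Lpl encodes lipoprotein lipase, which frees fatty acids from circulating triglyceride, and lies at chr8:68880555-68906932. On the brighter probe set (set 1) it measured 2912, 774 and 1993 in controls and 1017, 873 and 973 in CF. The CF arrays lay close together, within 1.16-fold, while the controls spanned 3.76-fold around them. The log2 difference was -0.79 ± 0.42 (adjusted p = 0.73), with -1.52 without suffix, 0.17 for B and -1.03 for P. Dropping control replicate 1 gave -0.38, and dropping control replicate 2 gave -1.34 instead. The dimmer probe set (set 2) read 364, 220 and 706 in controls and 240, 203 and 502 in CF, with both P arrays highest. Its log2 difference was -0.40 ± 0.49 (adjusted p = 0.90) and ran from -0.80, without control replicate 2 or CF replicate 3, to 0.04, without control replicate 3. The probe sets of this gene thus disagree on which mice are high.

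Cd36, which encodes a fatty acid translocase of the cell surface (chr5:17781690-17888959), stayed too dim to test. Its brighter probe set read 141, 40.5 and 22 in controls and 46.2, 132 and 38.8 in CF, with 4 of 6 arrays under 47.6. The other probe set read between 4.0 and 6.3 on all arrays. Pparg (chr6:115360879-115490404) read 201, 8.1 and 38.1 in controls and 186, 21.8 and 19.6 in CF. The arrays without suffix, 1 of each genotype, were the only ones above 47.6.

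The enzymes behaved unequally. Car3 encodes a cytosolic carbonic anhydrase abundant in fat and slow muscle and lies at chr3:14863538-14872381. It measured 5638, 32.2 and 1838 in controls and 631, 38.3 and 70.9 in CF. Control replicate 2 and CF replicate 2 were both under 47.6, so that the B arrays show no difference on this scale, while the other suffixes gave -3.16 and -4.70. The log2 difference was -2.62 ± 1.63 (6.14-fold, adjusted p = 0.78), and after setting to 47.6 the controls spanned 118-fold. Without control replicate 1 the difference was -1.20, and without control replicate 2 it was -4.65.

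Aoc3 encodes vascular adhesion protein 1, an amine oxidase on the surface of fat cells, endothelium and smooth muscle (chr11:101330606-101339430). It measured 682, 235 and 269 in controls and 169, 128 and 170 in CF, with no overlap between the groups. The log2 difference was -1.18 ± 0.44 (2.27-fold, adjusted p = 0.62), and the suffix differences were -2.01, -0.87 and -0.66. Without control replicate 1, the highest, the log2 difference was -0.70.

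**Figure D1:**
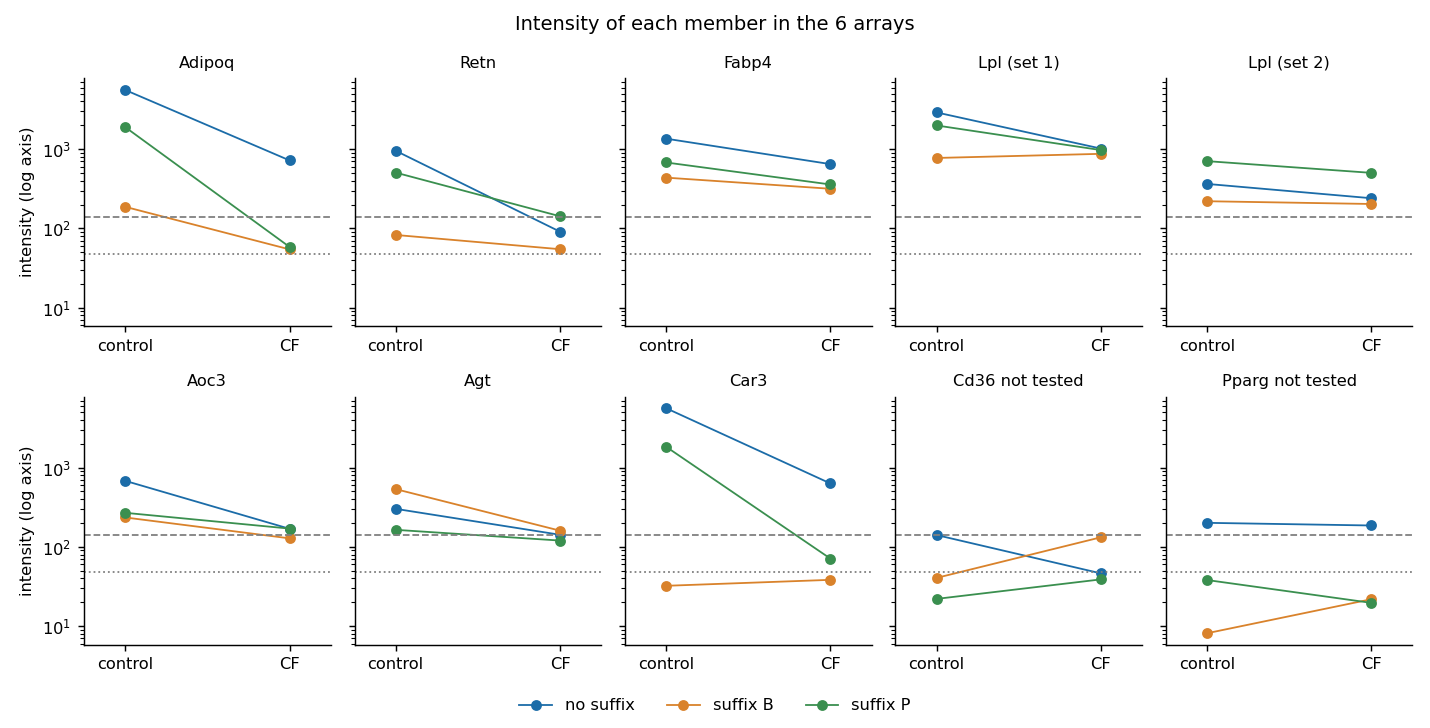
Intensity on a log axis (vertical) in control and CF arrays (horizontal) for 10 of the 11 probe sets, with a line joining the arrays of the same title suffix; the dotted line marks 47.6 and the dashed line 140.2, and the Cd36 probe set of 4.0 to 6.3 is not drawn. Adipoq ran from 54.2 to 5591 and overlapped between the groups, while all 3 CF arrays lay below all 3 control arrays for Aoc3 and Agt.

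The members were chosen with earlier results of these data known. The shares over all probe sets, here and below, are therefore a description and no test. All 8 tested member probe sets had a negative log2 difference, where 49.9% of the 7739 probe sets tested did, and their median was -1.14 beside 0.00 over all. Over all 11 probe sets without the brightness filter the median was -0.82. A difference of at least 2-fold lower was seen in 5 of the 8, and in 2.57% of all. In 6 of the 8 the CF array was the lower within every suffix (17.4% of all), and in 2, Aoc3 and Agt, the groups did not overlap (5.62%). The array of highest intensity was control replicate 1 in 6 of the 8, which held for 15.3% of all tested probe sets. Both probe sets of Lpl count among the 8.

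None of the 8 passed an adjusted p of 0.05 in limma, in which 0.0646% of all probe sets passed and 0% passed as lower in CF. At an unadjusted p under 0.05, 4 were lower in CF (Aoc3, Adipoq, Agt and Retn), against 3.11% of all. With the title suffix as a replicate block, adjusted p ran from 0.18 for Adipoq to 0.57 for Lpl set 2 and again 0 of 8 passed (0% of all passed as lower), while 7 of 8 were lower at an unadjusted p under 0.05 (5.67% of all). The SE of the Adipoq difference was 0.58 with the block and 1.30 without it.

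**Figure D2:**
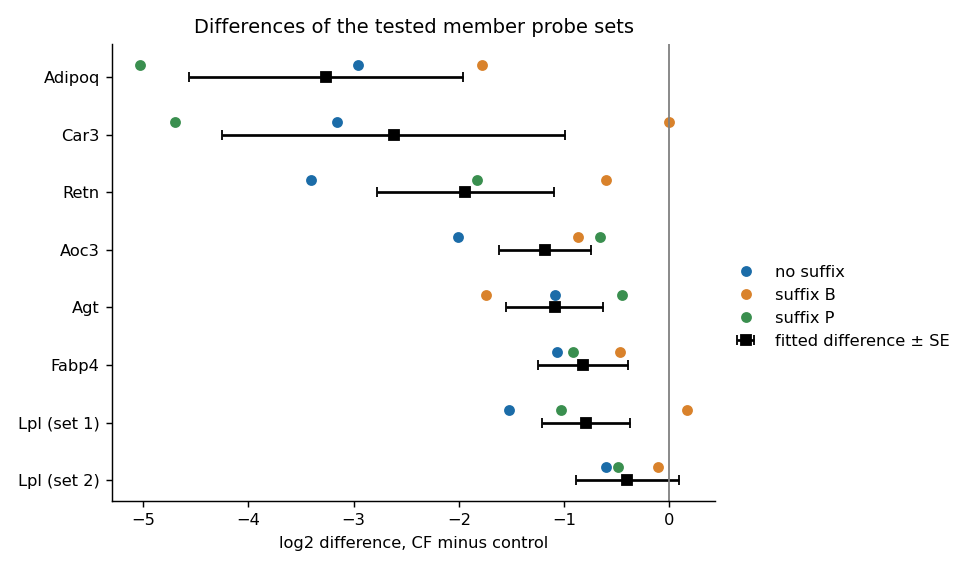
Log2 difference, CF minus control (horizontal), of the 8 tested probe sets, with a black square for the fitted difference, a bar of 1 SE to either side, and coloured points for the difference within each title suffix. Adipoq had the largest fitted difference, -3.26, and Car3 the widest SE, 1.63; the B arrays gave 0.00 for Car3 and 0.17 for Lpl set 1.

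Averaged over the 7 tested genes with the brightest probe set of each, the mean log2 intensity (the mean member level) read 10.62, 7.83 and 9.50 over the control arrays, and 8.45, 7.07 and 7.41 over the CF arrays. The highest CF array thus exceeded the lowest control array, and the control arrays differed among themselves by up to 2.80. Group means were 9.32 ± 1.41 and 7.65 ± 0.72 (SD, n = 3), so CF was lower by -1.67 on this scale. Leaving out control replicate 1, the mouse labelled as entire pancreas, brought this to -1.02. Within suffixes it was -2.17, -0.76 and -2.09. In each group the array without suffix was the highest and the B array the lowest.

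Other genes were taken from 8 pathway lists. Besides genes of fat cells, the lists hold partners of the members (12 tested) and relatives by protein family (13 tested). Such partners and relatives need not be expressed in fat cells. Of the 78 tested genes of all 8 lists, 42 were lower and 36 higher in CF, and 0 passed in limma. At an unadjusted limma p under 0.05, 5 were lower and 4 higher, and 14 lower and 4 higher with the block. Of all tested probe sets, 3.11% were lower at this limit, and 5.67% with the block. The share of all that were higher was not counted. The medians of the lists lay between -0.42 and 0.26, beside -1.14 for the members.

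Of the fatty acid synthesis genes, 8 of 8 tested were lower in CF (median -0.32; -0.45 to -0.26 with 1 array left out). Scd1, the stearoyl-CoA desaturase of fat and liver, measured 31651, 1410 and 11860 in controls and 6959, 1426 and 1500 in CF (log2 difference -1.72 ± 1.04, adjusted p = 0.77; -0.73 without control replicate 1). Like Car3, it was highest on control replicate 1 and low on both B arrays and on CF replicate 3. Scd2, a related desaturase, differed by -0.67 ± 0.35, and Thrsp, a nuclear protein that promotes lipogenesis, by -0.53 ± 0.40 (-0.12 without control replicate 1). Pgd, which makes NADPH in the pentose phosphate pathway, had the only non-overlapping groups of this list, at 1020 ± 262 and 757 ± 87.6 (-0.41 ± 0.23; -0.20 without control replicate 2).

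Of 10 further secreted factors of fat cells, 7 were lower and 3 higher (median -0.42; -0.65 to -0.13 with 1 array left out, -0.24 without control replicate 1). Sncg, a synuclein abundant in fat and nerve, measured 1217, 730 and 957 in controls and 501, 581 and 485 in CF, a log2 difference of -0.86 ± 0.24 (adjusted p = 0.37). Rarres2, the adipokine chemerin, gave 1167, 577 and 703 in controls and 405, 405 and 374 in CF, a log2 difference of -0.98 ± 0.28 (adjusted p = 0.43). For both genes every CF array lay below every control array, and the control spread was narrower than for Adipoq. Hp, the haemoglobin scavenger haptoglobin, differed by -1.03 ± 0.45, and Apoe, a lipoprotein component of macrophages and liver as well, by -1.42 ± 1.20. Without control replicate 1 these were -0.50 and -0.33. Lep, which encodes the satiety hormone leptin, was looked up after its values were seen. It measured 2878 to 3941 in controls and 2774 to 3231 in CF (-0.13 ± 0.17). Lep so spanned 1.42-fold over the 6 arrays, over which Adipoq spanned 103-fold. On CF replicates 2 and 3 Lep read 3032 and 2774, where Adipoq read 54.2 and 58.2. Whether the Lep probe set reports RNA of fat cells was not tested.

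Triglyceride storage and lipolysis genes were split, 8 higher and 8 lower of 16 (median 0.08; -0.08 to 0.28 with 1 array left out). Gpam, which starts glycerolipid synthesis, had means of 1197 ± 112 in controls and 1741 ± 310 in CF, a log2 difference of 0.53 ± 0.19 (adjusted p = 0.57), with every CF array above every control array. The fatty acid transporter Slc27a1 and the monoglyceride lipase Mgll were higher by 0.47 ± 0.27 and 0.34 ± 0.21 (0.24 for Slc27a1 without control replicate 2). Cav1, the caveolar coat protein of fat cells and endothelium, differed by -1.02 ± 0.60 (-0.49 without control replicate 1). Lipe, the hormone-sensitive lipase, named after its values were seen, measured 654, 89.3 and 316 in controls and 510, 301 and 394 in CF. Its controls, in the array order of Adipoq, spanned 7.32-fold, and its CF values lay within their range (0.57 ± 0.64).

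Among 13 adipogenic transcription factors, 7 were higher and 6 lower (median 0.19; 0.09 without control replicate 1). Cebpa, which acts with Pparg in fat cells, measured 1957 ± 724 in controls and 1289 ± 621 in CF (-0.62 ± 0.38). Cebpd and Cebpb, which act earlier in differentiation and also respond to inflammation, were higher by 0.89 ± 0.34 and 0.81 ± 0.44. Without control replicate 2 they were 0.52 and 0.49, and Cebpb, at 1491 on CF replicate 2, was 0.35 without that array and 0.04 without both replicate 2 arrays. Every CF value of Cebpd, from 804 to 1333, exceeded every control value, from 336 to 786. Nr1d1, named after its values were seen, went the other way without overlap. It measured 996, 1143 and 1057 in controls and 809, 882 and 966 in CF (-0.27 ± 0.18). Nr1h3, the oxysterol receptor LXR alpha, differed by 0.95 ± 0.37 (adjusted p = 0.65; 0.63 without CF replicate 2).

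For the partners of the members, 7 of 12 tested genes were lower and 5 higher (median -0.04). The adiponectin receptors Adipor1 and Adipor2, chosen after their values were seen, differed by -0.07 ± 0.25 and -0.01 ± 0.18. Cfb, the complement protease that adipsin cleaves, measured 191, 213 and 203 in controls and 55.8, 99.4 and 133 in CF, with no overlap and a log2 difference of -1.16 ± 0.48 (adjusted p = 0.67). Mas1, a receptor for an angiotensin fragment, differed by -0.31 ± 0.30, Cap1, which binds resistin, by 0.74 ± 0.52, and the tetraspanin Cd81 by -0.35 ± 0.19. Without control replicate 2 the Mas1 difference was -0.03. Of 4 insulin and adrenergic signalling genes, 3 were higher: Adcy6, an adenylyl cyclase, by 0.65 ± 0.22, Akt2, a kinase of insulin signalling, by 0.30 ± 0.32 and Pik3r1, a subunit of phosphoinositide 3-kinase, by 0.22 ± 0.36. Without CF replicate 3 the Akt2 difference was 0.02. The G protein subunit Gnai2 was lower, by -0.45 ± 0.21.

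Brown fat genes reached the filter in 3 of 10 cases on the array, and differed by 0.01 ± 0.23 for Cox8b, 0.36 ± 0.44 for Dio2 and 0.08 ± 0.35 for Ucp3. The defining brown fat gene Ucp1, a proton channel of mitochondria, was too dim to test, at 27.8 to 109 in controls and 69.2 to 182 in CF. Among 13 relatives of the members in the same protein families, 7 were higher and 6 lower (median 0.05). Car8, a carbonic anhydrase relative without catalytic activity, had means of 344 ± 68.0 in controls and 136 ± 74.4 in CF, with no overlap and a log2 difference of -1.52 ± 0.51 (adjusted p = 0.54; -0.94 without CF replicate 2). The complement genes C1qa and C1qb, whose proteins carry the globular domain of adiponectin, differed by -1.01 ± 0.55 (-0.37 without control replicate 1) and 0.21 ± 0.15. C1qc, a further C1q gene named after its values were seen, differed by -0.40 ± 0.30. Scarb2, a lysosomal relative of Cd36, differed by 0.26 ± 0.18. Fabp5, a fatty acid carrier close to Fabp4 that was chosen after its values were seen, differed by 0.10 ± 0.18.

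A further 43 pathway genes were on the array but too dim to test, and in 6 of them the CF values all lay below the control values, as they did in 4.85% of all 4683 untested probe sets. These were looked up after their values were seen. Cidec, the droplet protein that fuses lipid droplets in white fat, measured 577, 100 and 248 in controls and 22.2, 15.8 and 14.2 in CF. Plin4, another droplet coat protein, measured 486, 64.8 and 360 in controls and 63.9, 56.7 and 26.7 in CF. Me1, the malic enzyme that supplies NADPH, ran from 44.8 to 278 in controls and from 19.2 to 33.9 in CF. Orm1, an acute phase protein, ran from 119 to 588 and from 9.5 to 76.6, and Mest, an imprinted gene tied to fat cell size, from 99.0 to 199 and from 4.7 to 37.0. The sixth was Fabp7, a fatty acid carrier of brain, all of whose values were under 47.6. In a fit without the filter their adjusted p lay at 0.39 for Mest, 0.67 for Cidec and 0.80 or above for Plin4, Me1 and Orm1.

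Markers of other cells a dissected gland can hold were read on the same arrays, in 10 lists with 109 tested genes. Of these, 83 were lower and 26 higher in CF and 0 passed in limma. At an unadjusted limma p under 0.05, 15 were lower and 4 higher, and 25 lower and 4 higher with the block. Of all tested probe sets, 3.11% were lower at this limit, and 5.67% with the block, while the share higher was not counted. Of the macrophage markers, 10 of 12 were lower (median -0.74; -0.21 without control replicate 1 and -0.48 without CF replicate 2), and their mean log2 level was 8.36 to 9.57 in controls and 8.27 to 8.74 in CF. They were highest on control replicate 1 and low on both B arrays, as the members were. Cd68, a lysosomal protein, measured 758 ± 247 and 402 ± 26.2, and Laptm5, a leukocyte lysosomal protein, 1829 ± 247 and 1128 ± 214, without overlap. The signalling adaptor Tyrobp differed by -0.89 ± 0.38. Cd14, 1 of the 2 higher macrophage markers and named after its values were seen, went the other way without overlap. It measured 1252, 1252 and 906 in controls and 1665, 1530 and 1318 in CF (0.41 ± 0.20). The defining marker Adgre1 (F4/80) was too dim to test, between 42.4 and 101.

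Fibroblast and stellate cell markers were lower in 17 of 18 tested genes (median -0.50), with levels of 9.58 to 10.24 in controls and 9.08 to 9.51 in CF. The collagen genes Col15a1, Col6a2 and Col6a3 differed by -1.29 ± 0.31, -0.72 ± 0.22 and -1.50 ± 0.56. Of the mesothelial markers 6 of 9 were lower (median -0.67; -0.95 to -0.34 with 1 array left out, -0.37 without control replicate 1), with Wt1 at 237 ± 15.0 and 127 ± 16.3, Bnc1 at -1.46 ± 0.56 and Upk3b at -0.37 ± 0.18. Their level was 8.70 to 9.40 in controls and 8.21 to 8.88 in CF. Lymphocyte markers were lower in 8 of 10 (median -0.48; -0.86 without CF replicate 1), at levels of 9.45 to 9.90 and 8.78 to 9.61, with Ms4a1 at -0.95 ± 0.18, Cd37 at -0.78 ± 0.35 and Jchain at -1.08 ± 0.63. Endothelial markers were lower in 8 of 9 (median -0.31; -0.09 without control replicate 2), at 7.99 to 8.51 and 7.96 to 8.04, with Eng at -0.76 ± 0.28, Emcn at -0.78 ± 0.32 and Tek at -0.40 ± 0.39. The part of these cells in the differences of Fabp4, Lpl and Aoc3 was not tested.

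Markers of liver and muscle, tissues that express Agt or Car3, were read as well. Liver markers were lower in 7 of 7 (median -0.38; -0.23 without control replicate 2), led by Ttr, which islets also make, at -0.54 ± 0.26, Cyp2e1 at -0.60 ± 0.46 and Alb at -0.32 ± 0.27, at levels of 8.32 to 9.03 and 8.15 to 8.73. The highest array of the liver markers was control replicate 2, as with Agt. The same held for the endothelial, skeletal muscle, acinar and islet markers, so this is not particular to liver. The 8 liver markers too dim to test read from 6.2 to 292. Fgb and Ambp were under 47.6 on every array, and the other 6 were above it on at least 1 array, Ahsg and Tat on all. Against the direction of the tested liver markers, Ahsg read 75.2, 95.4 and 84.5 in controls and 292, 119 and 148 in CF. Every CF array of Ahsg thus lay above every control array. Of the skeletal muscle markers 6 of 10 were lower (median -0.11, and -0.31 to 0.12 with 1 array left out). Among them were Tnnc2 at -1.31 ± 0.42, Eno3 at -0.55 ± 0.44 (-0.02 without CF replicate 1) and, higher in CF, Casq1 at 0.57 ± 0.44. The level of the muscle markers was 8.07 to 8.97 in controls and 8.09 to 8.60 in CF. Of the 6 muscle markers too dim to test, which read from 6.3 to 81.1, Acta1 and Tnni2 were under 47.6 on every array and the other 4 above it on at least 1. The dim liver and muscle markers were counted after their values were seen. The part of liver or muscle RNA in the differences of Agt and Car3 was not tested. Acinar markers ranged from 15.25 to 15.65 in controls and 15.03 to 15.32 in CF, 13 of 14 lower (median -0.17), with Cela1 at -0.25 ± 0.17, Cela2a at -0.24 ± 0.17 and Sycn at -0.30 ± 0.17. Islet markers, 6 of 10 lower (median -0.05; -0.55 without control replicate 1 and 0.27 without control replicate 2), ran against the members in controls, with 8.69, 10.00 and 9.36 in replicates 1, 2 and 3, and included Ppy at 0.18 ± 0.22 and Scg2 at -0.55 ± 0.53. Duct markers were higher in 10 of 13 (median 0.13) at 9.99 to 10.06 in controls and 10.33 to 10.37 in CF, with Elf3 at 0.92 ± 0.16, Krt18 at 0.62 ± 0.16 and Cldn4 at 1.58 ± 0.54. The ratio of Gapdh signal from the 3' to the 5' probe set, a sign of RNA integrity, was 1.45 on control replicate 2 and 0.72 to 0.87 on the other arrays. On control replicate 2 the mean member level was the lowest among controls. Agt and the endothelial, liver, skeletal muscle, acinar and islet markers were highest there. The part of RNA integrity was not tested.

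**Figure D3:**
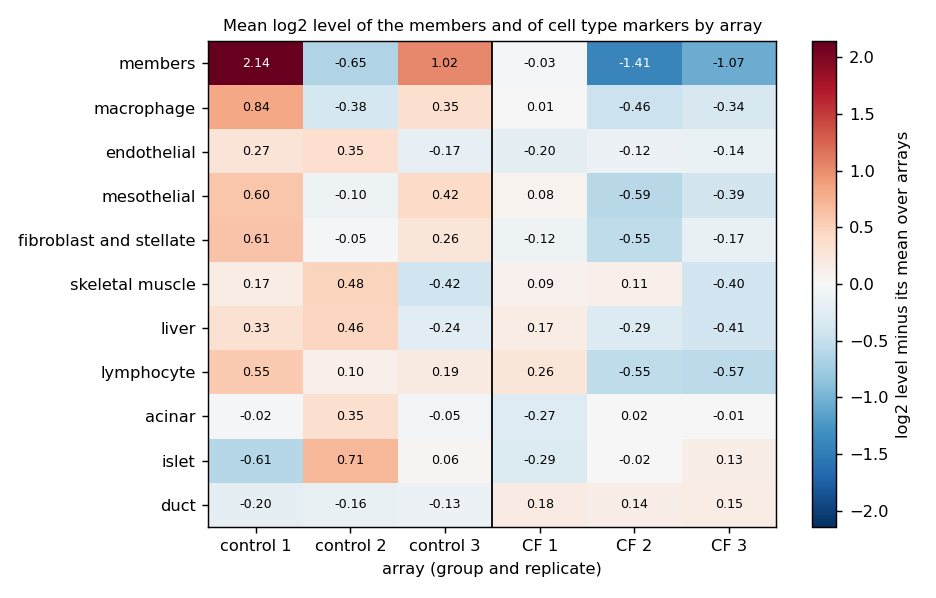
Mean log2 level of the 7 tested members and of the tested markers of 10 cell types (rows) in each array (columns), shown as the difference from the row's mean over the 6 arrays, red for higher and blue for lower. The members varied most, and macrophage, mesothelial and fibroblast markers were, like the members, highest on control replicate 1 and lowest on CF replicate 2.

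Genes whose course over the 6 arrays was most like that of the mean member level were sought among the 2559 other tested genes that varied at least 2-fold. Pearson's r exceeded 0.95 for 20 of them; it is given as a description, without a p, since the arrays share genotype and suffix. The 10 closest were Acp5, Mgst1, Fbln2, Psmb8, Fn1, Scd1, Ifi27l2a, Capn1, C1qtnf12 and Cd74, with r from 0.96 to 0.98. With group means removed, r was 0.93 to 1.00 for them, which the choice of genes on the same arrays largely fixes. Acp5, the tartrate-resistant phosphatase of macrophages and osteoclasts, measured 617, 91.3 and 241 in controls and 145, 62.0 and 46.1 in CF. Ifi27l2a, an interferon-induced gene, measured 1062, 19.0 and 275 in controls and 185, 38.1 and 67.8 in CF. Fn1, the matrix protein fibronectin, measured 2962, 697 and 1861 in controls and 1447, 664 and 792 in CF. Mgst1, a microsomal glutathione transferase strong in fat and liver, had 864, 144 and 397 in controls and 280, 142 and 151 in CF. C1qtnf12 encodes adipolin, an adipokine with the C1q domain that adiponectin also has, and its difference was -0.56 ± 0.30. Psmb8, of the immunoproteasome, and Cd74, the invariant chain of antigen-presenting cells, differed by -0.61 ± 0.42 and -0.54 ± 0.38, and Fbln2, a matrix protein, and Capn1, a calpain protease, by -0.65 ± 0.26 and -0.59 ± 0.40. In none of the 10 was the adjusted p under 0.65, and without control replicate 1 the difference of Acp5 was -0.98, of Ifi27l2a -0.44, of Fn1 -0.32 and of Mgst1 -0.39. Among the members themselves, r with the mean that contains them was 0.91 to 0.98 for Adipoq, Retn, Fabp4, Lpl, Aoc3 and Car3, and 0.23 for Agt, which was -0.52 with group means removed.

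**Figure D4:**
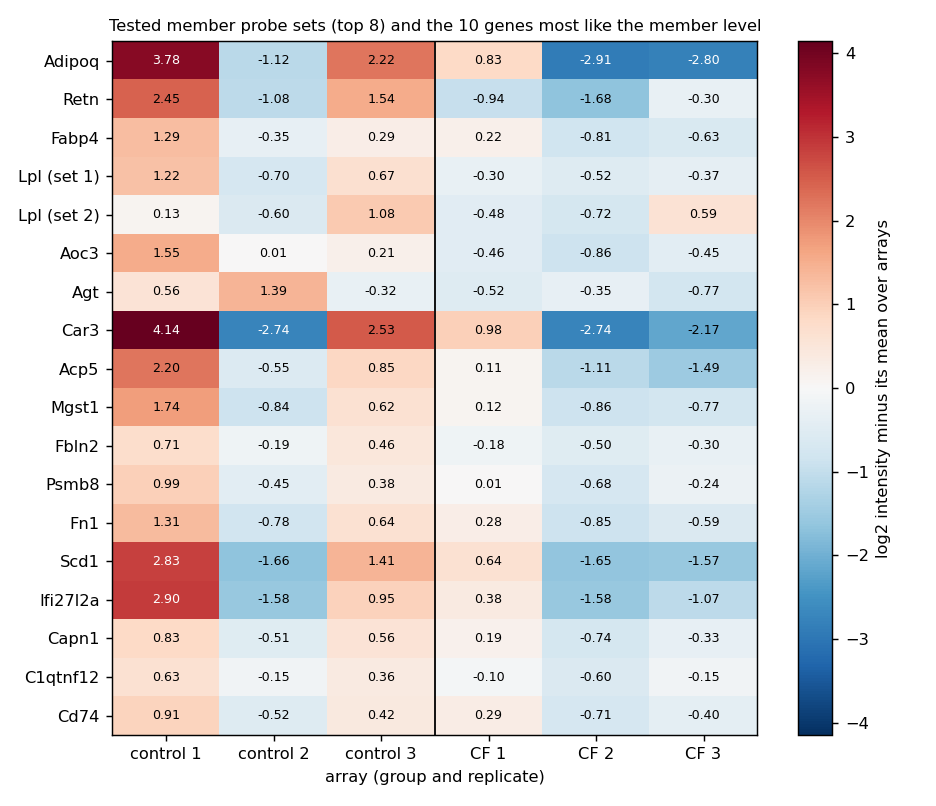
Log2 intensity in each array (columns), after setting values under 47.6 to it, as the difference from the row's mean, for the 8 tested member probe sets and the 10 genes most like the member level (rows). Control replicate 1 is the highest array in 6 of the 8 member rows, and Agt departs from the others by its high value on control replicate 2, 536.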

How the data were processed

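Pancreatic RNA of 3 control and 3 CF mice was measured on 1-colour arrays. The authors deposited 1 linear intensity per probe set and array; how it was computed is, for software and scaling alike, not given in the sources used here. Means after leaving out 2% at each end were 500.27 to 500.3 on all arrays, so the scaling was kept. Probe sets were named by the platform annotation (10855 with 1 symbol, 10839 of them matched by gene identifier to RefSeq, GRCm38.p6). A floor of 47.6 (the 20th percentile over all arrays) was set, log2 of the deposited intensity was taken, and 66 control probe sets and those with fewer than 3 arrays above 140.2 (the 40th percentile) were left out. The remaining 7739 were fitted in limma 3.58.1 (R 4.3.3, lmFit, and eBayes with an intensity trend) with Benjamini-Hochberg adjustment over all. The fit was also run on simulated arrays. Those were drawn independently, so the runs do not cover arrays that are linked by suffix. Each array is 1 mouse per the labels.

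Members and lists were chosen with earlier results of these data known. Named genes were all members, per pathway list the 4 and per cell list the 3 of smallest p, and the 10 most like the member level; exceptions are stated. Lists use the brightest tested probe set per gene and leave out members. Deviations from group means correlated at 0.231 to 0.264 between arrays of the same suffix and at -0.179 to -0.0479 between others. Deviations cancel out within a group, so the negative values follow from the positive ones and are no separate sign of pairing. On this basis, drawn from the same data, the suffix was used as the replicate block. Every SE and adjusted p given without mention of the block comes from the fit on genotype alone, which is unpaired.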

Additional observations from a re-analysis of the deposited data

How the results depend on the processing

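Of the 8 member probe sets 0 passed under all alternatives, among them scaling, floor, filter, variance model, array weights, the replicate block and leaving out arrays (adjusted p from 0.12 to 1), and so did 0 of the genes named from the lists. The direction of members held in 148 of 149 refits; Lpl set 2 ran from -0.80 to 0.04 when arrays were left out. The difference in member level per array moved by less than its pooled SD of 1.12 under all alternatives, from -2.42 without control replicate 2 to -1.02 without control replicate 1. The number of probe sets called over the whole array was 5, but 10 with the floor at the 40th percentile, 0 with no filter, 3 with no intensity trend, 12 with array weights, 10 with the replicate block, and 1 to 11 when arrays were left out (11 without control replicate 2, 8 without CF replicate 3, 3 without both replicate 2 arrays, and 1 without CF replicate 1, CF replicate 2 or both replicate 1 arrays); the cause was not tested. The block changed no other call. Leaving out both arrays of a suffix was added after the data were seen.

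Small differences changed sign when arrays were left out: Pik3r1 ran from -0.18 to 0.60, Dio2 from -0.16 to 0.69, Ucp3 from -0.13 to 0.39, Cox8b from -0.14 to 0.21 (-0.01 with array weights), Casq1 from 0.00 to 0.94 and Scg2 from -1.10 to 0.06. Leaving out 1 array moved the difference by over 1.5 times in 7 of 8 member probe sets, 46 of 69 other named genes and 16 of 18 list medians. Without control replicate 1 it did so in 5, 22 and 10 of these, and without control replicate 2 in 5, 28 and 12. Probe sets near 47.6, such as those of Cd36 and Pparg, allow no statement on a difference.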
